A study of Mus musculus with 6 samples.

Results

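Translation initiation and elongation factors were followed in 6 RNA-seq libraries of E14tg2a cells, a mouse embryonic stem (ES) cell line in wide use. The genes were taken by name: all rows of the deposited table whose symbol begins with Eif and a digit from 1 to 6, or with Eef and 1 or 2. This gave 64 of 12331 gene rows. Among them 3, Eif2c1, Eif2c2 and Eif2c4, are older symbols of Argonaute genes, which act in small-RNA silencing and are no initiation factors. The cells were grown with LIF, the cytokine that keeps them undifferentiated, and the groups shared cell line, culture and cDNA protocol. Per the labels' protocols, kit-purified total RNA was diluted to 10 pg, about the content of a single cell, primed with oligo(dT) and amplified by 20 PCR cycles, although the sample descriptions speak of a single cell lysate. The cDNA was cut by sonication with ligated adaptors in 3 libraries, and by tagmentation in the other 3. In tagmentation, hyperactive Tn5 transposase cuts DNA and attaches adaptors in the same reaction. It took 100 ng of cDNA for 5 min at 55 °C, with 13 further PCR cycles. No such values are listed for sonication, so effects of cutting and of library PCR cannot be told apart. The libraries were technical replicates numbered 1 to 3 in each group, so p-values measure only technical spread. The question was how cutting by transposase compares with cutting by sound.

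Translation starts when eIF2 brings the initiator tRNA to the small ribosomal subunit, helped by eIF1, eIF1A and the large complex eIF3. The cap-binding protein eIF4E, the scaffold eIF4G and the helicase eIF4A recruit the mRNA, eIF5 and eIF5B complete joining of the large subunit, and eEF1 and eEF2 then drive elongation. Phosphorylation of eIF2 and binding of eIF4E by the 4E-binding proteins are the best known brakes, and the mRNAs of many of these factors are abundant in growing cells such as embryonic stem cells.

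The libraries had 18852822 to 34681566 alignments. Libraries of the same number, 1 of each method, resembled each other far more than libraries of the same method: over the 53 factor genes tested, the correlation of log2(RPKM + 1) was 0.970 to 0.981 for the same number and 0.587 to 0.890 within a method. The numbers are therefore treated as pairs. All 8 listed stem cell markers, such as Pou5f1, reached 1 RPKM (reads divided by gene model length in kilobases and by library size) in at least 3 libraries, with a summed level of 898 to 2349 RPKM after sonication and 1364 to 2270 RPKM after tagmentation. Dppa5a was the highest of these markers in each library, at 455 to 1739 RPKM. Nanog was listed at 0 throughout number 3, and Klf4 had only 0.336 and 0.141 RPKM in number 1. Of 6 fibroblast markers 4 had a row, with sums of 0.402 to 12.1 RPKM and 0.126 to 9.55 RPKM. In number 1 the whole sum was Thy1, at 12.1 and 9.55 RPKM. Thy1 had at most 2.15 RPKM elsewhere, and Col1a1, Col1a2 and Col3a1 were below 1 RPKM throughout. Of 3 neuroectoderm markers 2 had a row, with sums of 1.26 to 2.61 RPKM and 0.723 to 2.43 RPKM. Of 5 extraembryonic endoderm markers 0 had a row, so that they were not analysed here. Thy1 moved with the number, and its part in the results was not tested.

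Eef1a1, which delivers aminoacyl-tRNA to the ribosome, was the most abundant factor gene. Its RPKM was 2190, 1776 and 1497 after sonication and 2124, 1961 and 2146 after tagmentation, in the order of the replicate numbers, which is kept throughout. It led in each of the 6 libraries, and its groups overlapped. Its paralogue Eef1a2, known from muscle and neurons, had 0.0465 to 0.200 RPKM, which corresponds to 2 to 9 reads per library. Eef1b2 and Eef1g, subunits of the complex that reloads eEF1A with GTP, stood at 667 to 1118 RPKM and 409 to 747 RPKM. A further subunit gene, Eef1d, had 89.4 to 165 RPKM. Eef1e1, whose product belongs to the multi-synthetase complex, was the uneven member of the eEF1 group. It had 85.3, 40.9 and 3.42 RPKM after sonication and 163, 76.5 and 6.41 RPKM after tagmentation, so that both libraries of number 3 lay far below the others.

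Eef2, the factor that moves the ribosome along the mRNA, was low in the libraries numbered 1 only. It had 336, 1076 and 1010 RPKM after sonication and 195, 969 and 981 RPKM after tagmentation. The difference between numbers passed limma's F test with method as a term (adjusted p 4.02e-08, range between number means 1.99 on the log2(RPKM + 1) scale). Its inhibitory kinase Eef2k was listed at 0 in numbers 1 and 3 and reached 0.0738 and 0.178 RPKM in number 2. Eif5a, which frees ribosomes stalled at difficult peptide bonds and carries the amino acid hypusine, averaged 852 ± 157 RPKM with sonication and 987 ± 362 RPKM with tagmentation (SD, n = 3). It did not pass the test between numbers (adjusted p 0.0983). Its paralogue Eif5a2 was listed at 0 in 5 libraries and had 0.149 RPKM in sonication library 3.

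**Figure D1:**
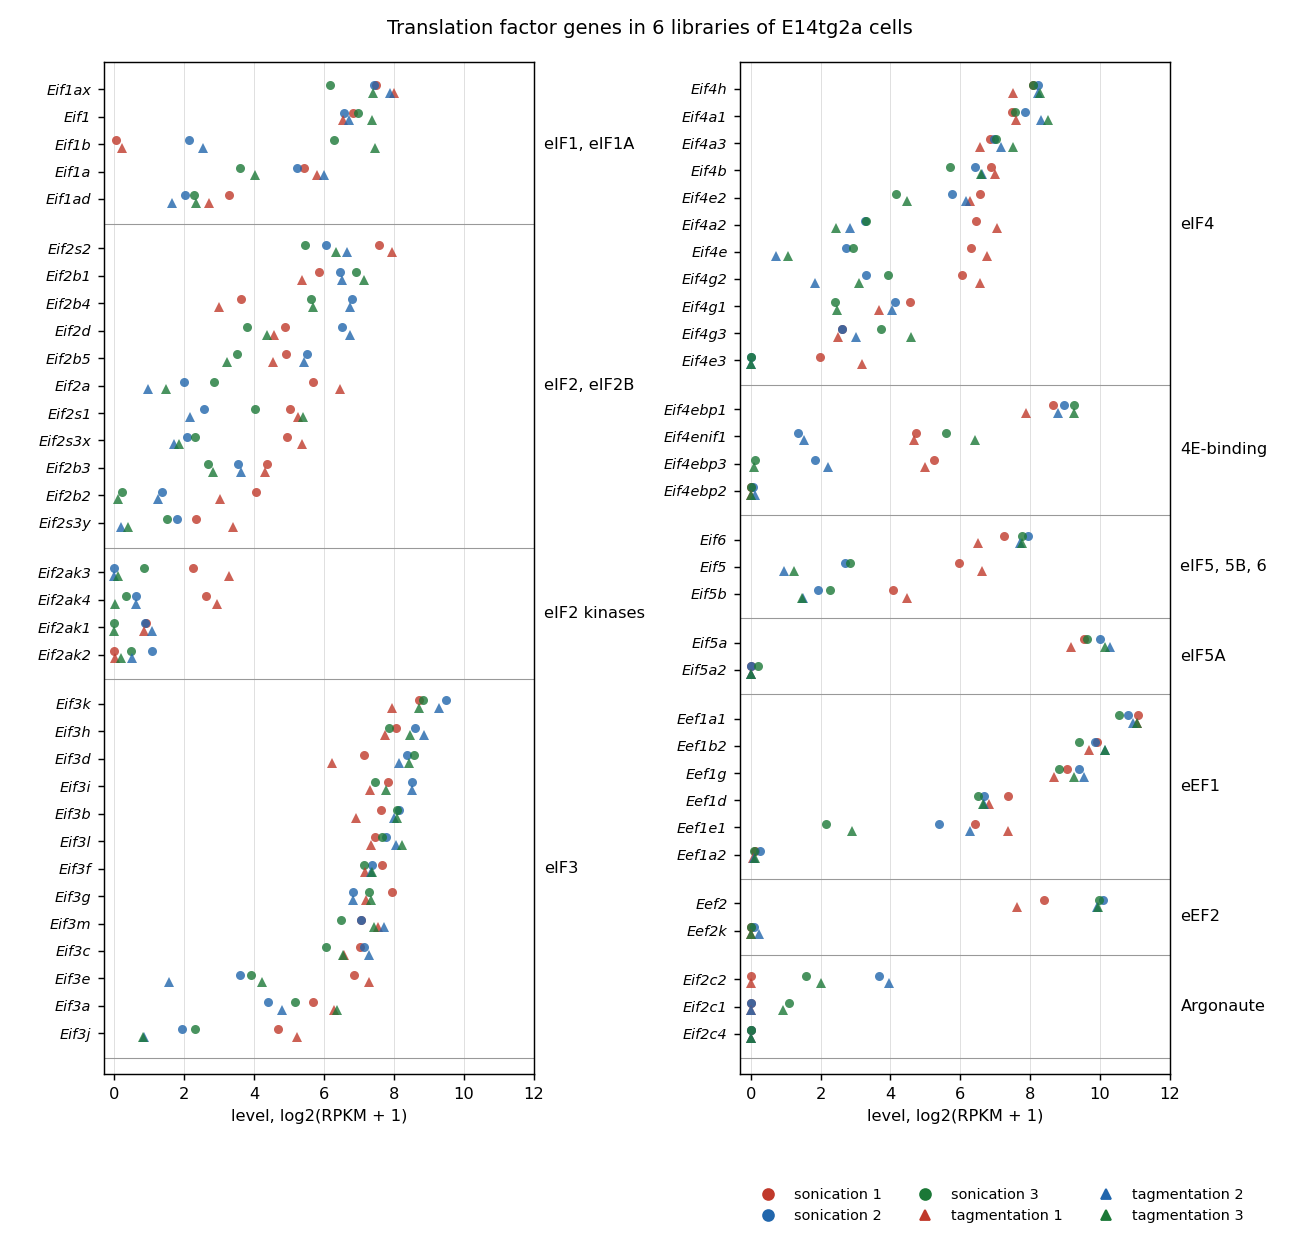
Level of each of the 64 factor genes as log2(RPKM + 1), with genes in rows grouped by role. Circles are sonication and triangles tagmentation libraries, colored by replicate number. Eef1a1 and most eIF3 subunits form tight groups near the right, whereas Eif1b, Eif4e, Eif5 and Eif2a spread by number.

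The eIF3 complex, the scaffold that joins mRNA and small subunit, was measured with all 13 subunits. The most abundant was Eif3k, with 418, 719 and 449 RPKM after sonication and 246, 623 and 418 RPKM after tagmentation. Its tagmentation library 1 was the lowest and both libraries of number 2 the highest. Eif3h (213 to 459 RPKM), Eif3d (73.8 to 378 RPKM), Eif3i (159 to 363 RPKM), Eif3b (119 to 282 RPKM) and Eif3l (160 to 297 RPKM) followed. Eif3f was the steadiest factor gene between numbers, with 201, 165 and 139 RPKM after sonication and 142, 160.0 and 164 RPKM after tagmentation. Eif3g had 113 to 242 RPKM, and Eif3c, a large subunit of the core, had 65.0 to 153 RPKM. The lowest value among these subunits and Eif3m was the 65.0 RPKM of Eif3c.

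The remaining 3 eIF3 subunits were lower in at least 1 number. Eif3e had 116, 11.0 and 14.1 RPKM after sonication and 154, 1.97 and 17.7 RPKM after tagmentation, and numbers 2 and 3 lay far below number 1. Eif3j, a loosely bound subunit, had 24.6, 2.82 and 3.97 RPKM and 36.4, 0.806 and 0.767 RPKM. Eif3a, the largest subunit, had 50.0, 20.0 and 35.1 RPKM and 77.4, 26.7 and 81.1 RPKM. Between numbers 8 of 13 subunits passed the F test, and Eif3e and Eif3j differed by 4-fold or more. Of all genes tested, 88.1% passed that test and 58.5% passed it with 4-fold or more.

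In the eIF2 group 11 of 11 genes passed the test between numbers (88.1% of all genes tested did), and 7 did so with 4-fold or more (58.5%). Eif2s2, the beta subunit of eIF2, had the highest mean of the group, with 188, 64.9 and 42.5 RPKM after sonication and 243, 100.2 and 79.6 RPKM after tagmentation. Eif2s1, the alpha subunit that the stress kinases phosphorylate, had 31.8, 4.92 and 15.3 RPKM and 37.4, 3.46 and 40.8 RPKM. The ratio of Eif2s2 to Eif2s1, whose products pair within eIF2, ranged from 1.95 to 29.0 over the libraries. The gamma subunit is encoded on the X and Y chromosomes by Eif2s3x and Eif2s3y. Eif2s3x had 29.5, 3.22 and 3.92 RPKM and 40.0, 2.24 and 2.59 RPKM, and Eif2s3y had 4.02, 2.47 and 1.86 RPKM and 9.56, 0.131 and 0.310 RPKM. Both were highest in number 1. Their transcripts share 5 windows of 30 bases, so a few reads could fall to either gene.

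The subunits of eIF2B, the exchange factor that recharges eIF2 with GTP, peaked in different numbers. Eif2b1 had 56.6, 87.1 and 118 RPKM after sonication and 40.3, 90.6 and 140 RPKM after tagmentation, with number 3 highest. Eif2b4 had 11.4, 111 and 48.2 RPKM and 6.96, 105 and 50.1 RPKM, with number 2 highest. Eif2b2 had 15.6, 1.56 and 0.169 RPKM and 7.08, 1.38 and 0.0733 RPKM, with number 1 highest. The 5 products form a single complex. Eif2b3 and Eif2b5 had 5.35 to 19.7 RPKM and 8.40 to 44.2 RPKM. Eif2a, an alternative carrier of initiator tRNA, had 50.4, 2.99 and 6.14 RPKM and 87.5, 0.955 and 1.77 RPKM. Eif2d, which acts in reinitiation, was highest in number 2, at 89.5 and 105 RPKM. None of the 4 eIF2 kinases passed the filter for testing. Eif2ak3 (PERK), the kinase of endoplasmic reticulum stress, was at 3.73 and 8.73 RPKM in number 1, was listed at 0 throughout number 2 and was below 1 RPKM in number 3. Eif2ak4 (GCN2), the sensor of amino acid shortage, had 5.16 and 6.69 RPKM in number 1 and at most 0.545 RPKM elsewhere. The highest value of Eif2ak1 was 1.12 RPKM and that of Eif2ak2 was 1.09 RPKM.

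In the cap-binding group the main helicase and its cofactors varied little between numbers and the cap-binding protein varied widely. Eif4h, a cofactor of the helicase, had the highest mean of the group, with 270.5, 297 and 268 RPKM after sonication and 182, 300.4 and 308 RPKM after tagmentation. Eif4a1, the main helicase, had 178 to 366 RPKM, Eif4a3, a helicase of the exon junction complex, 93.2 to 183 RPKM, and Eif4b 51.0 to 126 RPKM. None of these 4 passed the test between numbers. Eif4e, which binds the cap, had 78.8, 5.66 and 6.68 RPKM after sonication and 107, 0.652 and 1.11 RPKM after tagmentation, so that only the number 1 libraries were high. Eif4e2, a cap-binding repressor, had 16.9 to 94.3 RPKM and was lowest in number 3. Eif4e3 was seen in number 1 only, with 2.96 and 8.13 RPKM. The other 4 libraries have a 0, and 3 reads in them amount to 0.0344 to 0.0633 RPKM. This limit covers counting error only, since the reads carry no molecular identifiers and copies from PCR count repeatedly.

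The eIF4G scaffolds were low. Eif4g1 had 22.4, 16.5 and 4.35 RPKM after sonication and 11.9, 15.4 and 4.60 RPKM after tagmentation, and Eif4g3 had 4.62 to 22.9 RPKM. Eif4g2 (DAP5), a relative that lacks the eIF4E site, had 64.5, 8.77 and 14.4 RPKM and 93.1, 2.55 and 7.53 RPKM. Eif4g1 was lowest in number 3, where Eif4g3 was highest, and Eif4g2 was highest in number 1.

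Eif4ebp1, the repressor that mTOR signalling switches off, was well above its target Eif4e. It had 403, 503 and 608 RPKM after sonication and 233, 447 and 612 RPKM after tagmentation. The ratio of Eif4ebp1 to Eif4e was 5.11 and 2.17 in number 1, 88.8 and 686 in number 2 and 91.0 and 551 in number 3, and Eif4e varied far more over the libraries than Eif4ebp1 did. Eif4ebp2 was at or below 0.0809 RPKM throughout. Eif4ebp3 had 36.9, 2.61 and 0.0922 RPKM and 30.8, 3.66 and 0.0752 RPKM. Eif4enif1 (4E-T), which carries eIF4E to the nucleus and to mRNA granules, had 25.4, 1.56 and 46.8 RPKM and 24.5, 1.87 and 85.0 RPKM, with number 2 low in both methods.

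Of the factors that act at subunit joining, Eif6, which keeps the large subunit apart until it is mature, was the highest, with means of 204 ± 48.6 RPKM for sonication and 171 ± 70.2 RPKM for tagmentation (SD, n = 3). Eif5, which triggers GTP hydrolysis on eIF2, had 61.1, 5.47 and 6.14 RPKM and 98.1, 0.946 and 1.36 RPKM. Eif5b, the GTPase of subunit joining, had 15.9, 2.80 and 3.84 RPKM and 21.1, 1.82 and 1.79 RPKM. Both were high in number 1 only. Of the Argonaute genes, Eif2c2 (Ago2), the slicer, reached 11.7 and 14.5 RPKM in number 2 and only 1.99 and 3.01 RPKM in number 3. For number 1 the table gives 0 with either method, and 3 reads there amount to 0.0123 and 0.0178 RPKM. Eif2c1 was at or below 1.13 RPKM throughout, and Eif2c4 was listed at 0 in all but sonication library 2.

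The widest swing of any factor gene was that of Eif1b, a paralogue of the start-codon selector Eif1. Eif1b had 0.0360, 3.37 and 77.3 RPKM after sonication and 0.156, 4.79 and 173 RPKM after tagmentation. The number 1 values stand for 1 read and 3 reads. Eif1 itself had 113, 93.3 and 123 RPKM and 92.1, 104 and 164 RPKM, and the libraries of both methods and of all numbers lay close together. The first 150 of the 342 coding bases of each gene are shown because near-identical copies can share reads. They come from the GENCODE M21 mouse transcripts and run 5′ to 3′ from the start codon, with the 25 bases that differ in capitals.
Eif1: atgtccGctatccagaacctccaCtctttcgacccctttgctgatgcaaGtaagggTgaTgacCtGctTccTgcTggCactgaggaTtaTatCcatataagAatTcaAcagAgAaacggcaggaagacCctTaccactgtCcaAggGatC
Eif1b: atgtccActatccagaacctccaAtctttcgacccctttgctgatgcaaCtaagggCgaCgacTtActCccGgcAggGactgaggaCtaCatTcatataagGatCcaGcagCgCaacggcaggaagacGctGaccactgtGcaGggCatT
The whole coding sequences differed at 64 bases and were 81.3% identical. The differences were scattered: the longest run common to both transcripts was 25 bases and no window of 30 bases was shared. The sources used here do not state the read length.

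A like pair is formed by the helicases Eif4a1 and Eif4a2. Eif4a2 had 86.9, 8.75 and 8.82 RPKM after sonication and 132, 6.25 and 4.45 RPKM after tagmentation, against 178 to 366 RPKM for Eif4a1. The ratio of Eif4a1 to Eif4a2 was 2.05 and 1.45 in number 1 and 21.3 to 82.3 in the others. The last 150 coding bases are shown, again with differing bases in capitals (30 of them) and from the same source.
Eif4a1: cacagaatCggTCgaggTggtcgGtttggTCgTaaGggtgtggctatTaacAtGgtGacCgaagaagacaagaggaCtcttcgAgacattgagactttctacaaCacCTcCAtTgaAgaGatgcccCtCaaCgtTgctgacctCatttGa
Eif4a2: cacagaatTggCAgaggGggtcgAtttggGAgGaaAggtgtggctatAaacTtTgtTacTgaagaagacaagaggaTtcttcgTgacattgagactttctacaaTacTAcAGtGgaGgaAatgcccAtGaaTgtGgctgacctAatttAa
Over the whole coding sequence 77.8% of the aligned bases were identical, and no window of 30 bases was shared. Eif1ax and Eif1a, genes for eIF1A, moved more alike. Eif1ax had 178, 172 and 71.3 RPKM after sonication and 256, 236 and 166 RPKM after tagmentation, and Eif1a had 41.7, 36.3 and 11.2 RPKM and 54.4, 62.4 and 15.3 RPKM. Number 3 was lowest for both genes in both methods. Eif1ad, a nuclear relative, had 2.12 to 8.61 RPKM.

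Over all factor genes, 53 passed the filter for testing (in at least 3 libraries, 1 RPKM or more). The 11 left out were the 4 eIF2 kinases, Eif2c1, Eif2c4, Eef1a2, Eef2k, Eif4e3, Eif4ebp2 and Eif5a2. Between numbers 38 of 53 differed in limma's F test at an adjusted p under 0.05 (71.7%, against 88.1% of all genes tested), 20 of them by 4-fold or more (37.7%, against 58.5%). The gap from all genes was narrower or absent under other scalings: the shares were 83.0% against 88.9% with median-ratio scaling, 90.6% against 91.7% with quantile normalization and 88.7% against 88.9% with a GC correction added after the data were seen. Each number has 1 library per method, so this test takes the difference between methods within a pair as its error. The numbers label technical replicates, so differences between them are not read here as differences between cells. The protocols describe RNA purified in bulk. If so, a low level does not tell fewer cells with a transcript from less transcript per cell. The factor genes were more abundant than most, with a median mean level of 62.5 RPKM against 14.8 RPKM, and the share was lower at high levels for all genes. Of 24 factor genes with a mean of 100 RPKM or more, 10 differed between numbers (57.7% of all such genes did) and 0 by 4-fold or more (13.1%), Eef2 coming nearest. Of 23 with a mean of 10 to 100 RPKM, 22 differed (89.4%) and 17 by 4-fold or more (61.3%). The exception was Eif4b. The 6 factor genes with lower means all differed (94.1%), 3 by 4-fold or more (66.2%). Without the libraries of number 2 the count of 38 fell to 25 (47.2%), and the share of all genes fell to 60.9%.

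**Figure D2:**
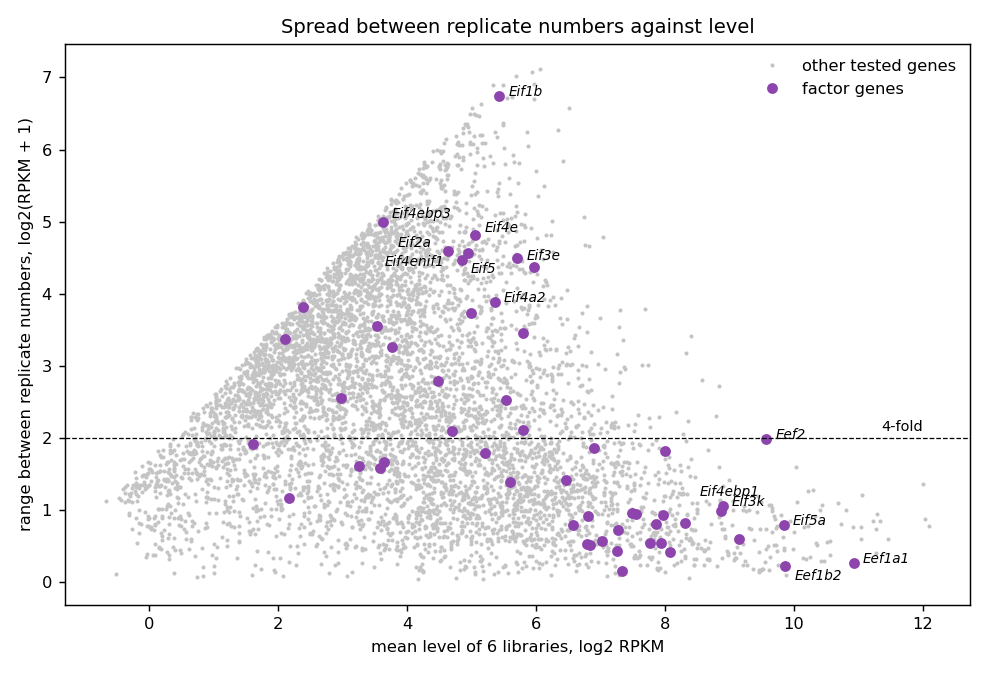
Range between the means of the 3 replicate numbers, on the log2(RPKM + 1) scale, against the mean level of the 6 libraries in log2 RPKM. Purple points are the 53 tested factor genes and grey points the other tested genes. Factor genes with a mean of 100 RPKM or more lie below the dashed line at 4-fold, and Eif1b is the highest factor gene with 6.74.

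Of the 53 tested genes, 21 differed and were highest in number 1 (39.6%, against 36.1% of all tested genes), 10 in number 2 (18.9%, against 33.3%) and 7 in number 3 (13.2%, against 18.7%). These counts moved with the scaling, to 17, 9 and 18 with median-ratio scaling (31.4%, 28.6% and 28.9% of all genes) and 24, 10 and 14 with quantile normalization (34.4%, 30.4% and 26.9%). Among the widest ranges, Eif4e, Eif5, Eif2a and Eif3e were high in number 1 in both methods, by ranges of 4.81, 4.47, 4.59 and 4.50 on the log2(RPKM + 1) scale. Eif4ebp3 (5.00) was also highest in number 1, and Eif1b (6.74) and Eif4enif1 (4.57) in number 3. At the other end stood Eif3f (0.16), Eef1b2 (0.23), Eef1a1 (0.27), Eif4h (0.43) and Eif3m (0.43), none of which passed the test.

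The genes that were high in number 1 tended to have transcripts of low GC content, with exceptions. The 21 called genes with their highest level in number 1 had 39.5% to 55.1% GC in their longest transcript, with a median of 43.6%. Eif4ebp3, which had the widest range of these between numbers, had 53.5%. The median was 53.0% for the 10 of number 2 and 51.7% for the 7 of number 3. Among all tested genes the medians were 47.8%, 53.0% and 53.2%. Of 17 factor genes below 45% GC, a limit set after the values were seen, 15 were highest in number 1. Of the other tested genes below that limit, 66.7% were. The 2 low-GC factor genes that were not were Eif1a and Eif3m. Of the 36 factor genes above it, 11 were, near the share of the other tested genes there (33.7%). Across the 53 factor genes the level in number 1 minus the mean of numbers 2 and 3 had a Spearman correlation of -0.63 with GC content and 0.29 with transcript length. Across 6212 other genes the correlations were -0.36 and 0.090. Genes are not independent replicates and share the same 6 libraries, so these values describe the libraries. With each library's trend on GC content taken off, 47 of 53 genes differed between numbers (88.7%, against 88.9% of all genes).

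**Figure D3:**
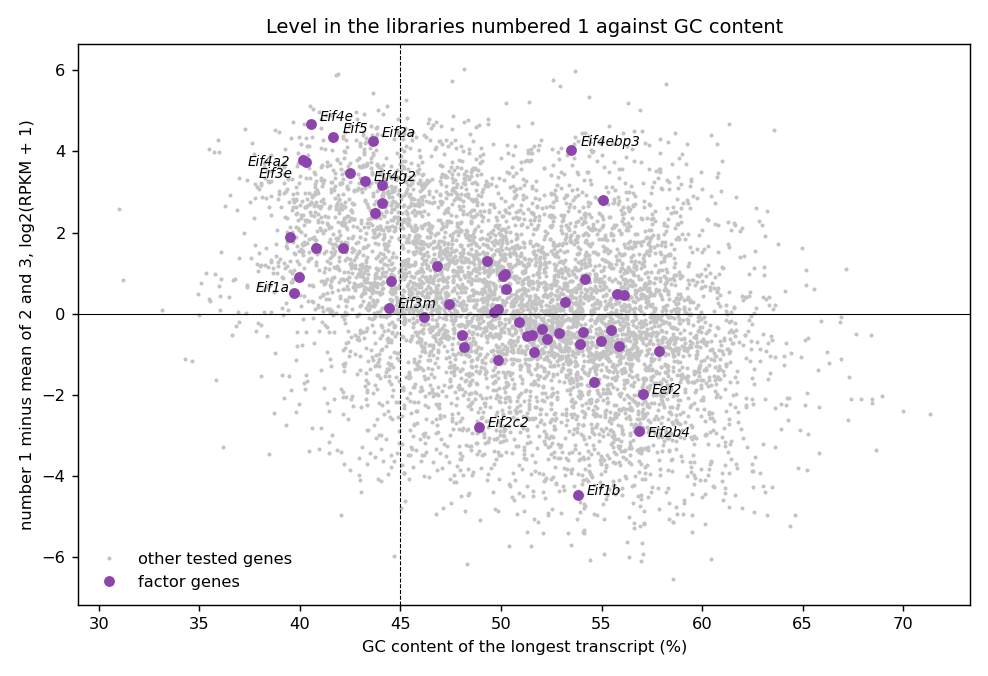
Level in the libraries numbered 1 minus the mean of numbers 2 and 3, on the log2(RPKM + 1) scale, against the GC content of the longest transcript in percent. Purple points are factor genes and grey points other tested genes, with a dashed line at 45%. Eif4e, Eif5 and Eif2a lie at the upper left, and Eef2, Eif2b4 and Eif1b at the lower right.

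Between methods, limma with the method as the only term leaves the spread between numbers in its error. It called no gene at all at an adjusted p under 0.05, 0 of 53 factor genes and 0.0% of all 6327 genes, so this count tells nothing about the factor genes. Of the factor genes 0 had an unadjusted p under 0.05, against 18 of all genes. The median log2 fold change of RPKM + 1, with sonication as the base, was -0.061, against 0.028 for all genes, with 26 genes above 0 and 27 below. The groups did not overlap in 1 factor gene (2.4% of all tested genes), Eif3m, a subunit of eIF3. It had 132, 131 and 87.6 RPKM after sonication and 186, 211 and 173 RPKM after tagmentation, a log2 fold change of 0.71 (SE 0.40, unadjusted p 0.105, adjusted p 1.00). With the number as a block its adjusted p was 0.184. It was called with the block without the libraries of number 1 (adjusted p 0.0155) and with quantile normalization (adjusted p 0.0279). In the other blocked alternatives it was not called, and these called only 0 to 64 of all genes. A p that misses the threshold does not show that levels were equal.

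With the replicate number as a block, limma called 1 factor gene, against 3.29% of all tested genes. It was Eif4e, lower after tagmentation by 1.15 in log2 (value -1.15, SE 0.30, adjusted p 0.0133; 1.71% of all tested genes were called lower). The direction was not shared by all pairs: Eif4e was lower in numbers 2 and 3 and higher in number 1. It was not called without replicate 2 (-0.71, adjusted p 0.999) or without replicate 3 (-0.79, adjusted p 0.909), nor with a pseudocount of 0.1 (adjusted p 0.292) or after a GC correction (-1.11, adjusted p 0.261). In that order, these fits called 10, 19 and 8 of 6327 genes and 0 of 6265 genes. The blocked fit after the GC correction had 4.53 degrees of freedom, against 212 without the correction. With quantile normalization 8 factor genes were called, against 7.52% of all tested genes, but Eif4e was not among them (adjusted p 0.233). It was also not called with median-ratio scaling (adjusted p 0.129) or with no filter (adjusted p 0.698), where 64 of 6327 and 0 of 12331 genes were called. Over all blocked alternatives the adjusted p of Eif4e was 0.00582 to 0.999. Without the libraries of number 1, 13 factor genes were called, against 16.6% of all tested genes. Higher after tagmentation were 7 (10.5% of all tested genes), Eef1e1, Eif1ax, Eif1b, Eif2s2, Eif3a, Eif3m and Eif4a1. Lower were 6 (6.15%), Eif2a, Eif2s3y, Eif3j, Eif4e, Eif4g2 and Eif5.

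Within the pairs, the direction between methods went with GC content in number 1. There all 17 factor genes below 45% GC were higher after tagmentation, and 3 of the 36 others were. Among the other tested genes these shares were 85.4% and 28.1%. In number 2, 6 of the 17 and 22 of the 36 were higher (53.3% and 59.9% of the other tested genes). In number 3 it was 8 of the 17 and 30 of the 36 (48.6% and 68.9%). In number 2 the 6 low-GC genes that were higher after tagmentation, Eef1e1, Eif1a, Eif1ax, Eif2s2, Eif3a and Eif3m, had 20.0 to 172 RPKM after sonication, and the 11 that were lower had 2.47 to 11.0 RPKM. Each number holds 1 library per method, so the difference between numbers in the effect of the method was not tested. Higher after tagmentation in 3 of 3 pairs were 9 factor genes (17.0%, against 19.6% of all tested genes), among them Eif1ax, Eif2s2, Eif4a1 and Eif4b. Lower in 3 of 3 pairs were 5 (9.43%, against 14.2%), Eef2, Eif2b2, Eif2b5, Eif3d and Eif3k.

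**Figure D4:**
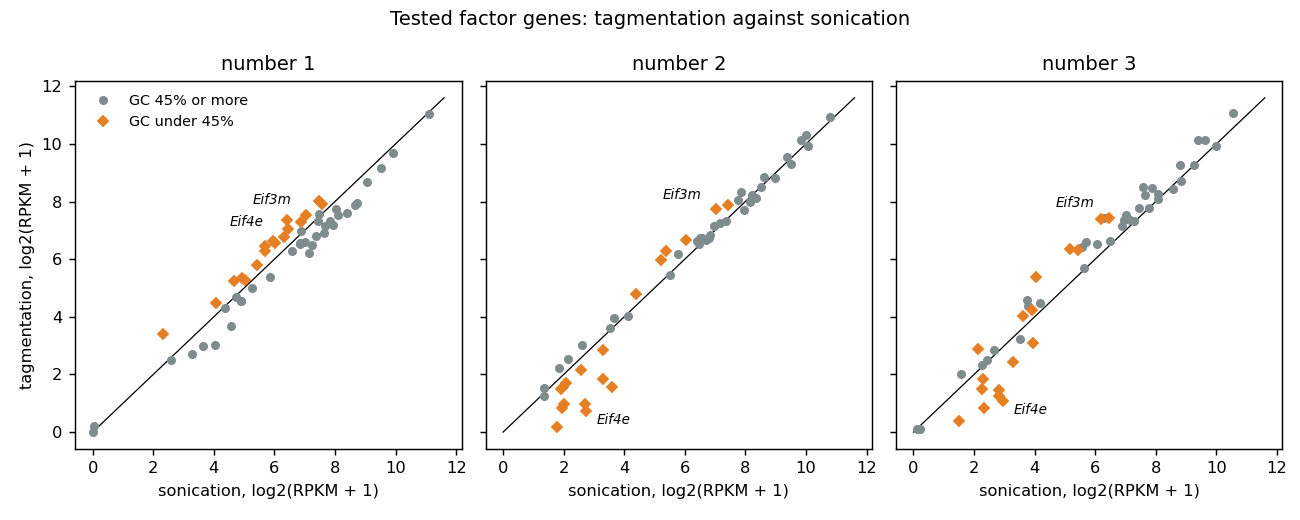
Level of the 53 tested factor genes after tagmentation against sonication, both as log2(RPKM + 1), in a panel for each replicate number. Orange diamonds are genes below 45% GC, grey circles the others, and the line marks equal levels. All diamonds lie above the line in number 1, and 11 lie below it in number 2.

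Other genes of the translation pathway, listed by role, differed between numbers about as often as all tested genes. Of 53 listed genes 52 had a row and 42 were tested. Between numbers 37 of 42 differed (88.1% of all tested genes did), 26 by 4-fold or more (58.5%). All 6 tested genes of the list for release, recycling and reinitiation differed and were highest in number 1 (36.1% of all tested genes). Denr, a reinitiation factor, had 91.2, 24.9 and 2.92 RPKM after sonication and 102, 34.5 and 2.44 RPKM after tagmentation. Pabpc1, the poly(A)-binding protein that contacts eIF4G, had 259, 286 and 181 RPKM after sonication and 318, 415 and 361 RPKM after tagmentation. Its groups did not overlap, and with the block its adjusted p was 0.284. Atf4, the transcription factor made when eIF2 is phosphorylated, had 195 to 402 RPKM. Dohh, which completes the hypusine of eIF5A, had 2.74, 130 and 47.0 RPKM and 1.58, 73.0 and 26.5 RPKM, with number 1 low as for Eef2. Rptor, the mTOR partner that recruits the 4E-binding proteins, had 0.0190 and 0.0343 RPKM in number 1 and 10.8 to 32.4 RPKM in the others. Without the block none was called between methods, and with it 0 were called higher (1.58% of all tested genes) and 2 lower (1.71%). The first was Abce1, the ribosome recycling ATPase (-1.04, SE 0.29, adjusted p 0.0217). It had 21.5, 6.07 and 5.95 RPKM after sonication and 25.0, 1.60 and 0.862 RPKM after tagmentation, so that it was higher after tagmentation in number 1 and lower in numbers 2 and 3. The other was Ppp1cb, a catalytic subunit of the phosphatase that acts on eIF2 (-1.75, SE 0.27, adjusted p 5.43e-07). Ppp1cb had 3.17, 1.60 and 5.63 RPKM after sonication and 0.367, 0.101 and 0.244 RPKM after tagmentation, and its groups did not overlap. Pabpc1, higher after tagmentation, was the other of the 2 tested genes of this list without overlap (2.4% of all tested genes).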

How the data were processed

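The values were RPKM, made by the authors before deposition, with 1 column per library, none pooled. Per the file headers it pairs gene symbols with RPKM and states alignment totals. Per the submitters' processing notes mm9, CASAVA 1.7.0 and Partek were used, with no role given. How reads with several matches were counted is not given in the sources used here. Values were tested as log2(RPKM + 1), which understates changes of low genes, with limma 3.58.1 in R 4.3.3 (lmFit, eBayes with a trend, two-sided, Benjamini-Hochberg over all 6327 genes kept, threshold 0.05). The method was the only term. The F test of the replicate number had the method as a second term. Libraries of numbers 1, 2 and 3 deviated together from their group means (r 0.952, 0.969 and 0.934 between methods), so the numbers were taken as pairs, although the labels do not say that they share a cDNA. With the block the test had 212 degrees of freedom, almost all borrowed from other genes, against 9.99 without it. Reads were recovered as the whole numbers that fit the RPKM values and alignment totals at a single gene length. The fit had to hold within 0.002 reads plus 1e-05 of the reads, and some length passed for 53 of 64 factor genes, 82.8%. For abundant genes this tolerance admits wrong lengths: Eef1a1 got 369 bases against a transcript of 1794, and Eif2b4 14221 against 2025. Read numbers are given above only for Eef1a2 and Eif1b, and limits of 3 reads only for Eif4e3 and Eif2c2. GC content and length are those of the longest transcript in GENCODE M21, matched by symbol for all 64, 4 of them through an older symbol. No coordinates are given because that annotation is not of mm9. The fits and the read recovery were tested on simulated data. The factor genes, the roles, the pathway list, the tests and the alternatives were chosen with earlier results of these data known. Genes named in full were the highest of each role, genes called or not overlapping between methods, the 5 widest and 5 narrowest ranges between numbers, subunits of eIF3 and the cap-binding group, genes listed at 0 in a library and at 10 RPKM or more in another, and paralogue pairs. Other genes were added after their values were seen.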

Additional observations from a re-analysis of the deposited data

How the results depend on the processing

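The count of factor genes called between methods was 0 without the block under each pseudocount (0.1 and 5), filter and scaling tried and without each library. Each of these fits called 0 of all genes tested, so their counts tell nothing about the factor genes. With the replicate block it was 1, and with the block and quantile normalization 8 (7.52% of all tested genes were called there). With the block and a number left out it was 0 to 13. The 13 came without number 1, where 16.6% of all tested genes were called. Without number 2 and without number 3 it was 0, where 10 and 19 of all 6327 genes were called. With the block and a pseudocount of 0.1, no filter, median-ratio scaling or a GC correction the count was 0. In that order, 8 of 6327, 0 of 12331, 64 of 6327 and 0 of 6265 of all genes were called. A count of 0 there tells little about the factor genes. The fold change of Eif4e turned to 0.015 without sonication replicate 1 and was -3.10 to 0.015 over the libraries left out. The median fold change of the factor genes was -0.23 to 0.15 over all alternatives. This was less than 1 SD (0.235) of the median over the 3 pairs from its value. The count that differed between numbers was 32 to 48 under other pseudocounts, filters, scalings and a GC correction. These were 59.4% to 90.6% of the factor genes tested, against 67.0% to 91.7% of all genes tested. With libraries left out it was 25 to 46, or 47.2% to 86.8%, against 60.9% to 92.7% of all genes tested. Depth limits low values: 1 read per kilobase of gene model stood for 0.0288 to 0.0530 RPKM.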
